A study of Orbilia oligospora ATCC 24927 with 24 samples.

Results

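Transcript levels were compared between the wild type and libraries labelled as an adenylate cyclase (AoAcy) deletion of Arthrobotrys oligospora after 12 h of trap induction. A. oligospora (strain ATCC 24927) is a soil fungus that captures nematodes with adhesive networks grown from its hyphae. The comparison rests on 6 of the 24 RNA-seq libraries of the series, 3 of wild type hyphae and 3 of hyphae labelled AoAcy deletion mutant, both given a nematode extract for 12 h. Hyphae of the same strains taken at 0 h with no treatment, again 3 libraries per strain, served for the comparison of effects before and after induction. The series' design text names another mutant (AorlmA), and the groups here follow the sample labels. All strains had been grown on potato dextrose agar at 28 °C. No group was left untreated for 12 h, so the extract and the further 12 h cannot be told apart. The labels do not say how many transformants stand behind the deletion libraries, nor whether the 3 libraries of a group stem from separate cultures, so p-values measure the spread between these libraries, which may be technical. Of 11479 annotated genes, 9617 had at least 1 TPM (a transcript's share of the library, corrected for gene length) in at least 3 of the 12 libraries of this experiment, and these were tested.

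Adenylate cyclase makes cyclic AMP (cAMP) from ATP. In fungi, cAMP binds the regulatory subunit of protein kinase A (PKA) and frees its catalytic subunits, and phosphodiesterases end the signal by hydrolysing cAMP. The pathway is known for coupling nutrient sensing to growth, sporulation, use of storage carbohydrates and the formation of infection structures.

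The median TPM of the tested genes was 21.4 to 25.0 in the induced wild type libraries and 31.4 to 34.8 in the induced deletion libraries. The 50 most abundant genes took 26.8% to 29.7% of the TPM in the former and 21.9% to 23.2% in the latter. All libraries were therefore scaled to the same median, by factors of 0.825 to 1.34, and a level below is a scaled TPM unless it is called a deposited TPM. A fold change is the difference of log2(scaled TPM + 1), deletion minus wild type, which understates the change of low genes. It is given ± SE from limma, with Benjamini-Hochberg adjusted p over all 9617 genes and n = 3 libraries per group throughout, and a gene was called at adjusted p under 0.05. Levels of whole hyphae cannot separate fewer cells that express a gene from less RNA per cell. Across genes, pairs of induced libraries within a group had correlations of 0.974 to 0.991, and pairs of 1 induced deletion and 1 wild type library 0.857 to 0.877.

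The gene annotated as adenylate cyclase, AOL_s00080g284, is the only one in the files whose Swiss-Prot match is this enzyme, and the labels do not give the locus tag of AoAcy. It was listed in every library labelled deletion. Its level was 16.4, 14.5 and 17.8 in the 3 induced wild type libraries and 10.5, 9.92 and 9.28 in the 3 induced deletion libraries, so the groups did not overlap. The fold change was -0.66 ± 0.11 (adjusted p = 0.000382), and the induced deletion libraries held 60.9% of the wild type level. At 0 h they held 56.3%. In deposited TPM the induced means were 13.3 ± 2.14 and 11.6 ± 1.31 (SD), and the fold change of -0.18 did not pass (adjusted p = 0.32). The gene is 6303 bases long. A limma fit with a trend over coding length removed, added after values were seen, gave -1.10 (adjusted p = 1.81e-05). The files give 1 value for the whole gene, and which stretch was replaced is not in the labels, so a transcript left from an undeleted stretch and an intact gene cannot be told apart. The libraries are therefore called labelled deletion libraries.

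**Figure D1:**
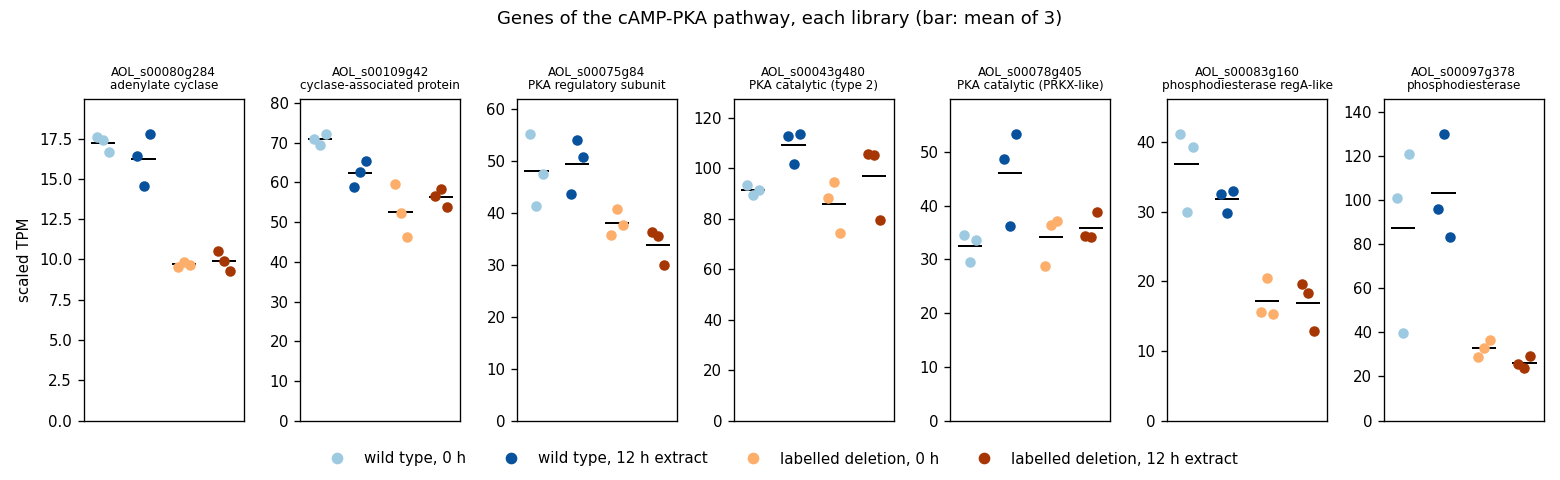
Scaled TPM (vertical axes, from 0) of the 7 genes of the cAMP-PKA list in each library, with a bar at the mean of 3. After induction the 3 labelled deletion libraries lie below the 3 wild type libraries for adenylate cyclase, the regulatory subunit and both phosphodiesterases. They also do so for the cyclase-associated protein, which was not called, whereas the groups overlap for both PKA catalytic subunits.

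Besides the cyclase gene, the genes for the PKA regulatory subunit and for both phosphodiesterases were lower after induction. Of the 7 cAMP-PKA genes, 4 fell, none rose and 3 did not pass the test. Over all tested genes 51.1% were called, 21.2% higher and 29.9% lower. The phosphodiesterase gene AOL_s00097g378 was at 95.7, 129.97 and 83.3 in the induced wild type and at 25.6, 24.03 and 29.3 in the labelled deletion libraries. That is a fold change of -1.91 ± 0.33, adjusted p = 0.00043. A second phosphodiesterase gene, AOL_s00083g160 (best match regA), went from 32.6, 29.8 and 32.9 to 19.5, 18.4 and 12.9, a change of -0.89 ± 0.18, adjusted p = 0.00129. For both genes the strains did not overlap. The PKA regulatory subunit AOL_s00075g84, which holds the kinase inactive until cAMP binds, was at 43.6, 54.002 and 50.8 against 36.3, 35.5 and 29.9 (-0.53 ± 0.13, adjusted p = 0.00562). The catalytic subunit genes did not pass, at -0.18 ± 0.13, adjusted p = 0.261 for AOL_s00043g480 and -0.34 ± 0.15, adjusted p = 0.0812 for AOL_s00078g405. Nor did the cyclase-associated protein AOL_s00109g42, which binds the enzyme and actin, at -0.14 ± 0.11, adjusted p = 0.274. In deposited TPM these 3 values turned positive (0.33, 0.16 and 0.36), that of AOL_s00109g42 was called higher (adjusted p = 0.0345), and of the 4 decreases only that of AOL_s00097g378 passed.

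Over all genes, 2036 were higher and 2877 lower in the labelled deletion libraries after induction. Of these, 915 were at least 2-fold higher (9.51% of all tested) and 1206 at least 2-fold lower (12.5%). The groups did not overlap for 5871 genes (61.0%), 2453 higher (25.5%) and 3418 lower (35.5%), and 57.1% had an unadjusted p under 0.05. At 0 h 44.9% were called, 21.8% higher and 23.1% lower (10.7% and 7.34% at 2-fold). The balance depends on the scaling. Deposited TPM gave 4378 higher and 1317 lower genes (59.2% called, 45.5% higher and 13.7% lower, and 17.9% and 6.29% at 2-fold), with a median fold change over all genes of 0.39 against -0.09 here. Scaling by the median of ratios gave 2444 and 2472 (51.1% called, 25.4% and 25.7%) with a median of 0.00. The 2036 genes called higher here were called higher in deposited TPM too, and 1317 of the 2877 lower ones stayed lower. No gene was called in opposite directions with scaled and with deposited TPM. Scaling raised the induced wild type libraries (factors 1.15 to 1.34) and lowered the induced deletion libraries (0.825 to 0.915). Deposited TPM therefore give a more positive fold change for every gene. Genes called higher here could not turn lower, so their overlap is no check on direction. Genes without any annotated name made up 28.8% of those tested, 48.1% of those at least 2-fold higher and 31.7% of those at least 2-fold lower.

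The 12 named genes with the largest decreases included protease inhibitors, a lectin, a lipoxygenase and extracellular peptidases. AOL_s00210g28, which carries a peptidase inhibitor I66 domain, was at 511, 675 and 318 in the wild type and 2.55, 2.45 and 3.52 in the labelled deletion libraries (-6.98 ± 0.32, adjusted p = 1.68e-08). A second gene of this kind, AOL_s00076g558, went from 344, 210.3 and 153 to 5.18, 5.29 and 3.04 (-5.38 ± 0.30, adjusted p = 8.2e-08). AOL_s00076g557, its neighbour, encodes a nuclease of the S1 type that degrades single-stranded nucleic acids. It went from 150.1, 162 and 115 to 4.27, 3.199 and 2.96 (-5.00 ± 0.31, adjusted p = 1.57e-07). Every labelled deletion library lay far below every wild type library for all 3 genes. Lack of overlap was a condition for choosing the 12 genes of each direction, so it is no result here.

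A lectin of the Agaricus bisporus type, AOL_s00080g288, binds sugars and is among the abundant transcripts of the induced wild type. Its level was 1069, 2680.5 and 2314 there and 40.6, 35.8 and 34.4 in the labelled deletion libraries (-5.63 ± 0.30, adjusted p = 6e-08). The wild type libraries varied among themselves, and even the lowest of them stood far above the labelled deletion libraries. AOL_s00188g351, a member of the isp4 family of oligopeptide transporters, went from 555, 611 and 654 to 6.53, 3.53 and 2.499 (-6.94 ± 0.32, adjusted p = 1.64e-08). AOL_s00097g288, annotated as a lipoxygenase, an enzyme that oxidises polyunsaturated fatty acids, went from 196, 353 and 384 to 3.003, 4.13 and 1.34 (-6.37 ± 0.34, adjusted p = 5.89e-08). For a cellulose-binding domain gene, AOL_s00004g323, the wild type held 90.6, 125 and 59.4, and all 3 labelled deletion libraries listed it at 0 (adjusted p = 1.55e-05).

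The same group of 12 held peptidases and a chitin-binding protein. The metalloprotease gene AOL_s00215g805 was at 133, 151 and 212 in the wild type and 6.303, 2.45 and 2.02 in the labelled deletion libraries (-5.27 ± 0.36, adjusted p = 3.47e-07). AOL_s00080g319, a peptidase of the S41 family, went from 70.1, 93.99 and 82.01 to 2.88, 1.73 and 1.55 (-4.78 ± 0.22, adjusted p = 1.68e-08). The LysM gene AOL_s00080g425, whose domain binds chitin, went from 59.997, 73.5 and 70.02 to 2.104, 1.47 and 2.21 (-4.56 ± 0.26, adjusted p = 8.71e-08). These 3 genes had no overlap between strains, as the choice required. The L-fucose-proton symporter gene AOL_s00076g531 went from 354, 448 and 354 to 12.6, 16.2 and 16.2 (-4.59 ± 0.13, adjusted p = 3.9e-10), and the short-chain dehydrogenase gene AOL_s00083g381 from 89.1, 173 and 145 to 4.64, 3.705 and 2.61 (-4.85 ± 0.27, adjusted p = 7.79e-08).

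Among genes with no name, 5 stood out in the same way and are given by locus tag only. AOL_s00043g444 was at 558, 410.04 and 431 against 3.48, 2.15 and 6.33 (-6.62 ± 0.45, adjusted p = 3.3e-07), and AOL_s00140g36 at 126, 118 and 126 against 3.75, 0.926 and 3.96 (-5.13 ± 0.31, adjusted p = 1.57e-07). AOL_s00215g420 went from 54.4, 101 and 54.7 to 4.02, 0.261 and 0.979 (-4.87 ± 0.42, adjusted p = 2.15e-06). AOL_s00006g185 had 22.4, 48.8 and 48.2 in the wild type and 0.0825, 0 and 0.128 in the labelled deletion libraries (adjusted p = 5.44e-08). AOL_s00097g446 had 17.9, 50.2 and 36.96 and was listed at 0 in all 3 labelled deletion libraries (adjusted p = 2.88e-07).

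**Figure D2:**
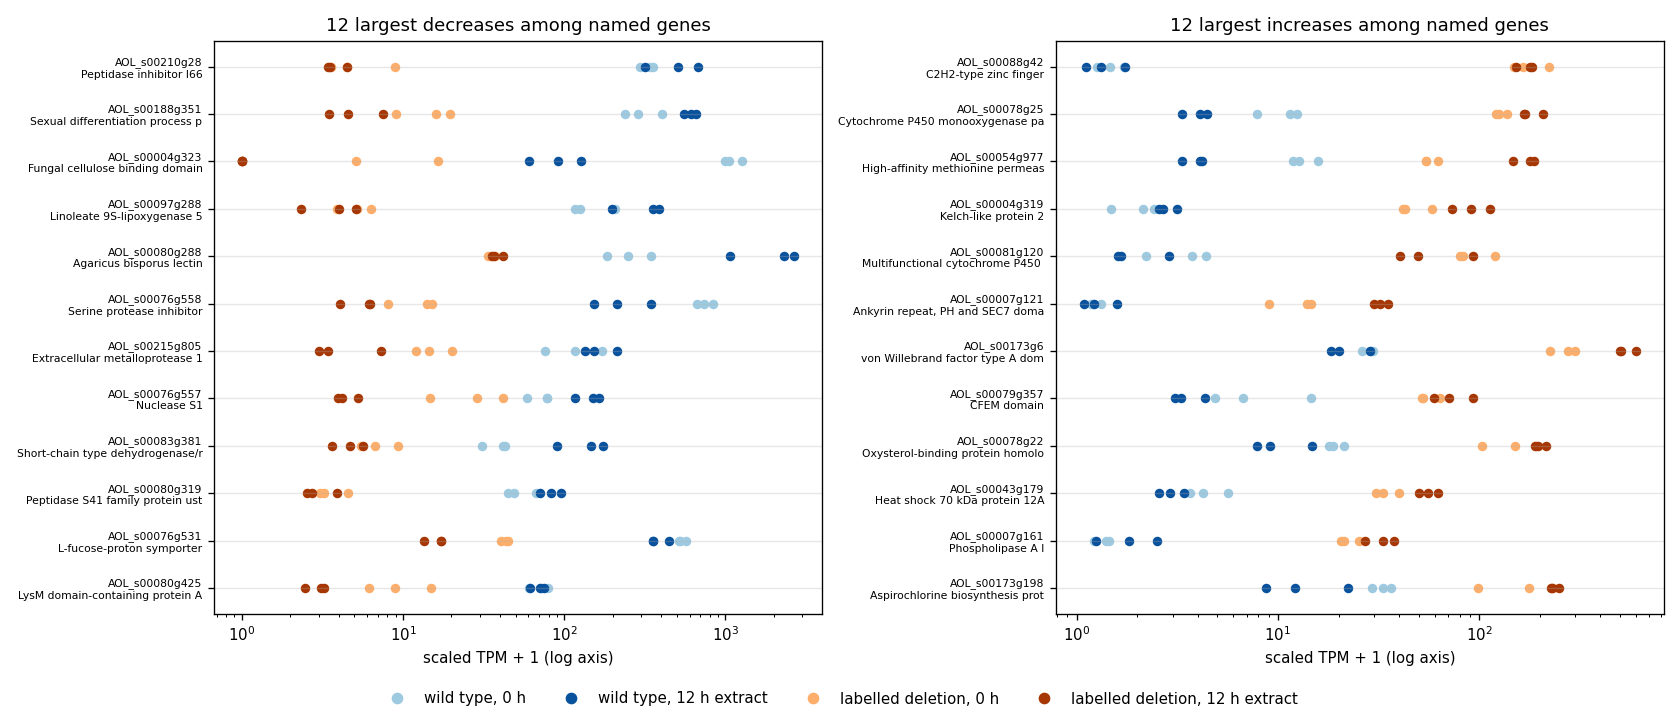
Scaled TPM + 1 (log axis) of the 12 named genes with the largest decrease and the 12 with the largest increase after induction, 1 point per library in all 4 groups. In each row the 3 induced wild type points are separate from the 3 induced deletion points, which was a condition for choosing the genes. The untreated libraries of a strain mostly lie on the same side.

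The 12 named genes with the largest increases included P450 enzymes, a permease and membrane lipid proteins. The methionine permease gene AOL_s00054g977, a high-affinity amino acid transporter by annotation, was at 2.36, 3.08 and 3.22 in the wild type and 187, 178 and 147 in the labelled deletion libraries (5.46 ± 0.15, adjusted p = 3.72e-10). A cytochrome P450 gene, AOL_s00081g120, went from 0.655, 1.89 and 0.602 to 39.4, 48.6 and 92.6 (4.86 ± 0.35, adjusted p = 4.95e-07). The third labelled deletion library was the highest of them. AOL_s00173g6, with a von Willebrand factor type A domain, a fold for binding other proteins, went from 19.1, 17.4 and 27.5 to 601, 501 and 506 (4.61 ± 0.17, adjusted p = 2.34e-09). AOL_s00079g357, a CFEM protein, went from 3.33, 2.29 and 2.07 to 69.5, 58.4 and 91.9 (4.37 ± 0.33, adjusted p = 6.76e-07). CFEM domains are cysteine-rich and occur in fungal surface proteins.

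Further named increases were in AOL_s00004g319, whose best match is a Kelch-like protein, from 2.14, 1.69 and 1.58 to 112, 72.2 and 90.4 (5.03 ± 0.22, adjusted p = 1.21e-08), and in AOL_s00043g179, an Hsp70 relative, from 2.403, 1.58 and 1.91 to 61.6, 49.1 and 54.9 (4.25 ± 0.18, adjusted p = 1.14e-08). AOL_s00007g121, with ankyrin repeats, went from 0.218, 0.590 and 0.0843 to 31.1, 29.01 and 34.3 (4.66 ± 0.20, adjusted p = 1.25e-08). AOL_s00007g161, annotated as a phospholipase, went from 0.253, 1.502 and 0.831 to 32.4, 25.97 and 36.6 (4.17 ± 0.23, adjusted p = 6.89e-08). None of these genes overlapped between the strains, as the choice required. Chosen after their values were seen, 6 further genes were listed at 0 in all 6 wild type libraries of the experiment, untreated ones included, and at 1 deposited TPM or more in all 6 labelled deletion libraries. They were AOL_s00215g361 at 159, 159 and 139 after induction, AOL_s00007g160 at 13.1, 11.7 and 15.998, the LysM gene AOL_s00006g579 at 4.46, 6.32 and 11.8, the thioredoxin gene AOL_s00079g366 at 4.21, 5.87 and 5.61, and 2 genes of the stretch described next. No gene was listed at 0 in all 6 labelled deletion libraries and at 1 TPM or more in all 6 wild type libraries.

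Some large changes lay in runs of neighbouring genes. A run was at least 4 consecutive locus tags that were called and at least 2-fold changed in 1 direction. The 19 higher runs held 98 of the 915 genes at least 2-fold higher. The 12 lower runs held 55 of the 1206 genes at least 2-fold lower. Most large changes thus lay outside runs. The most changed stretch reached from AOL_s00088g31 to AOL_s00088g47. It joins the runs AOL_s00088g31 to AOL_s00088g37 and AOL_s00088g39 to AOL_s00088g47, whose 16 genes were called and at least 2-fold higher by definition. Between these runs, AOL_s00088g38 was not called (0.61 ± 0.25, adjusted p = 0.0616). The 16 genes summed to 64.1 to 68.6 deposited TPM in the induced wild type libraries and to 6919 to 8065 in the labelled deletion libraries. At 0 h the sums were 79.7 to 92.5 and 6793 to 7727. The strain difference in this stretch was thus present before induction.

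Most genes of this stretch have no annotated function. AOL_s00088g37 was listed at 0 in all 3 induced wild type libraries and stood at 1030.03, 1052 and 898 in the labelled deletion libraries (adjusted p = 3.27e-10). AOL_s00088g36 was also listed at 0 in the wild type and stood at 439.99, 547 and 1061 (adjusted p = 3.06e-09). AOL_s00088g34 went from 2.28, 1.73 and 0.915 to 1383, 1428 and 1732 (9.19 ± 0.29, adjusted p = 1.11e-09), and AOL_s00088g35 from 0, 0.456 and 0 to 575, 648 and 863 (adjusted p = 7.29e-10). AOL_s00088g41 went from 0.885, 0.295 and 0.554 to 299, 292 and 329 (7.62 ± 0.16, adjusted p = 8.34e-11). The exceptions to the missing names were AOL_s00088g42, a C2H2 zinc finger protein of a class that often binds DNA, and AOL_s00088g46, with a chromo domain, which binds modified histones. They went from 0.115, 0.738 and 0.325 to 151, 181 and 177 (6.96 ± 0.20, adjusted p = 3.9e-10) and from 0.161, 0 and 0.518 to 1.79, 2.46 and 5.31 (1.70 ± 0.33, adjusted p = 0.00107).

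**Figure D3:**
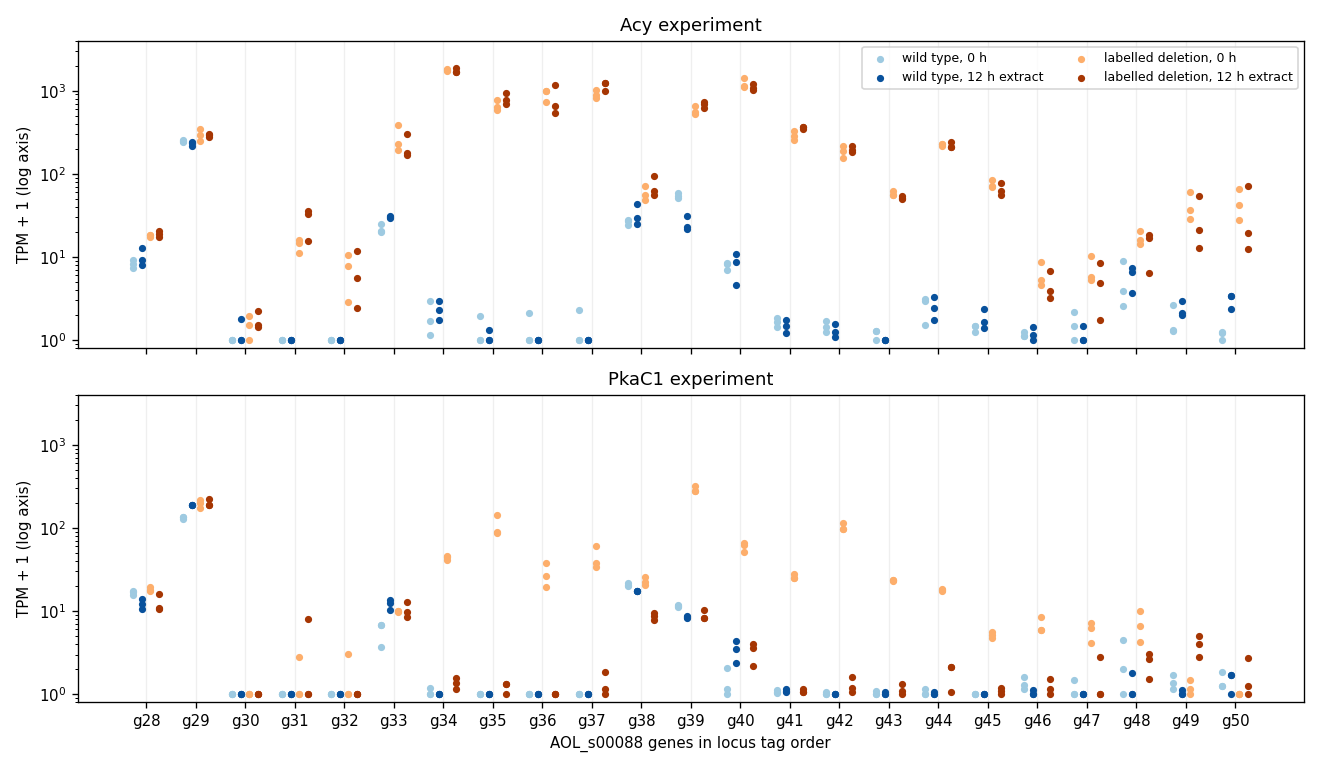
Deposited TPM + 1 (log axis) of AOL_s00088 genes in locus tag order, g28 to g50, 1 point per library, for the Acy experiment (top) and the experiment on AoPkaC1, a PKA catalytic subunit (bottom). In the Acy experiment both labelled deletion groups lie far above both wild type groups from g34 to g45 except at g38, and in the PkaC1 experiment the untreated labelled deletion libraries alone do.

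Some of the other runs held named genes. In the run AOL_s00078g21 to AOL_s00078g26, a cytochrome P450 gene, AOL_s00078g25, went from 3.104, 3.46 and 2.34 to 205, 166 and 167 (5.51 ± 0.18, adjusted p = 1.12e-09). Its neighbour AOL_s00078g22 encodes an oxysterol-binding protein, a carrier of sterols between membranes. It went from 13.7, 8.17 and 6.84 to 214, 187 and 196 (4.29 ± 0.24, adjusted p = 8.2e-08). The epoxide hydrolase gene AOL_s00078g24 went from 28.7, 31.8 and 24.4 to 441, 369 and 457 (3.86 ± 0.19, adjusted p = 3e-08).

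In the run AOL_s00173g195 to AOL_s00173g198, AOL_s00173g195 was among the most abundant transcripts and has no annotated name. Its level was 4808, 4931 and 3298 in the wild type and 19405, 18326 and 23456 in the labelled deletion libraries (2.25 ± 0.25, adjusted p = 1.54e-05). AOL_s00173g198, whose best match is an aspirochlorine biosynthesis protein, went from 21.2, 11.2 and 7.71 to 229.8, 248 and 227 (4.15 ± 0.33, adjusted p = 1.07e-06). The 4 unnamed genes AOL_s00097g420, AOL_s00097g421, AOL_s00097g422 and AOL_s00097g423 rose by 5.21 to 6.18 on the log2 scale. They were higher at 0 h too, by 5.85 ± 0.32, 6.08 ± 0.41, 6.32 ± 0.41 and 7.34 ± 0.43.

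Among the lower runs, AOL_s00054g264 to AOL_s00054g268 held an aspartic protease, a sugar transporter and a tripeptidyl peptidase. The protease gene AOL_s00054g264 went from 317, 375 and 417 to 32.3, 12.7 and 12.3 (-4.34 ± 0.35, adjusted p = 1.28e-06). The transporter gene AOL_s00054g267 went from 71.6, 72.1 and 59.5 to 3.49, 2.74 and 5.56 (-3.84 ± 0.21, adjusted p = 6.68e-08). The peptidase gene AOL_s00054g268 went from 140.04, 148 and 216 to 50.1, 42.3 and 25.2 (-2.10 ± 0.27, adjusted p = 5.74e-05). In AOL_s00080g424 to AOL_s00080g427, a second LysM gene, AOL_s00080g426, and a chitinase-like killer toxin gene, AOL_s00080g427, fell with AOL_s00080g425, at -3.34 ± 0.19, adjusted p = 8.2e-08 and -2.84 ± 0.23, adjusted p = 1.11e-06. The run AOL_s00097g317 to AOL_s00097g320 held a methyltransferase gene, AOL_s00097g319, at 879, 903 and 955 in the wild type and 115, 109 and 96.2 in the labelled deletion libraries (-3.08 ± 0.13, adjusted p = 1.01e-08).

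The longest of the 12 lower runs was the polyketide cluster from AOL_s00215g274 to AOL_s00215g283, which is built around a gene annotated as 6-methylsalicylic acid synthase. All 10 genes were called and at least 2-fold lower, as the definition of a run requires, with a median of -2.39. The P450 gene AOL_s00215g282 was at 77.7, 60.5 and 71.6 in the induced wild type and 7.904, 6.77 and 6.23 in the labelled deletion libraries (-3.15 ± 0.19, adjusted p = 1.31e-07). A second P450 gene, AOL_s00215g280, went from 14.8, 11.4 and 11.4 to 0.965, 0.631 and 0.284 (-3.07 ± 0.18, adjusted p = 1.2e-07). The synthase gene AOL_s00215g283 itself was low in the wild type and went from 3.32, 2.33 and 3.62 to 1.16, 0.909 and 0.448 (-1.16 ± 0.22, adjusted p = 0.00102). Levels had been higher at 0 h in the wild type, for instance 183 ± 24.04 (SD) for AOL_s00215g282 against 16.7 ± 4.71 in the labelled deletion libraries. For 9 of the 10 genes the untreated decrease was called too.

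Nuclear genes for mitochondrial energy metabolism were lower across nearly whole lists. For these and the lists below, 29.9% of all tested genes were lower and 21.2% higher. In deposited TPM the shares were 13.7% and 45.5%. Of 66 genes for respiratory chain subunits and their assembly, 61 fell and none rose, with a median of -1.03. The complex I subunit gene AOL_s00112g15 was at 452, 509.8 and 355 in the wild type and 150.1, 115 and 152 in the labelled deletion libraries (-1.65 ± 0.17, adjusted p = 6.75e-06). A subunit gene of ATP synthase, AOL_s00079g108, went from 2053, 2149 and 1859 to 644, 579 and 970.1 (-1.50 ± 0.21, adjusted p = 0.000103). For cytochrome c oxidase subunit 4, AOL_s00080g172, which is in the last complex of the chain, levels went from 1249.7, 1407 and 1264 to 413, 447 and 551 (-1.48 ± 0.13, adjusted p = 2.81e-06). The 5 genes that did not pass included 3 assembly factors of cytochrome c oxidase (AOL_s00081g226, AOL_s00110g121 and AOL_s00215g462), at -0.18, -0.13 and 0.07.

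Genes for the mitochondrial ribosome, which translates the organelle's own messages, were lower as well. Of 57 genes 53 fell and none rose, with a median of -0.75. The small-subunit gene AOL_s00109g189 went from 208, 240.3 and 179 to 83.3, 88.1 and 92.2 (-1.23 ± 0.17, adjusted p = 8.44e-05), and the large-subunit gene AOL_s00054g251 from 228, 227 and 231 to 96.03, 103 and 98.2 (-1.20 ± 0.15, adjusted p = 3.94e-05). The 72 proteins of the cytosolic ribosome differed from these in their count, with 2 lower and none higher and a median of -0.27. That count was 0 without wild type library 2 or labelled deletion library 1 or 2, 4 without wild type library 1, and 9 without labelled deletion library 3. At 0 h, 21 of these 72 genes were lower.

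In deposited TPM the respiratory list had 39 lower and 2 higher genes and the mitochondrial ribosomal list 11 lower and none higher. Members of both lists are short, with median coding lengths of 575 and 744 bases against 1266 for all tested genes, and short genes leaned towards lower values. By coding length, the median fold change ran from -0.27 for genes up to 500 bases to 0.34 for genes above 5000 bases. In labelled deletion library 1 the median difference from the wild type mean ran from -0.42 to 0.54 over these classes, in library 2 from -0.34 to 0.41, and in library 3 from -0.11 to 0.05. Single wild type libraries also showed a trend, from 0.14 to -0.17 in library 2 and from -0.13 to 0.12 in library 3. In wild type library 1 the values were 0.01 and 0.05. With that length trend removed (51.4% of all genes called, 25.8% higher and 25.6% lower), 54 of 66 respiratory genes and 41 of 57 mitochondrial ribosomal genes were lower.

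Genes for storage carbohydrates and glycolysis were lower. Of 11 genes for trehalose and glycogen, the main fungal storage carbohydrates, 9 fell and none rose, with a median of -1.26. Glycogen phosphorylase AOL_s00109g17, which releases glucose units from glycogen, was at 459, 478 and 618 in the wild type and 160.5, 156 and 151 in the labelled deletion libraries (-1.72 ± 0.16, adjusted p = 4.34e-06). Glycogen synthase AOL_s00007g435, which acts in the opposite direction, went from 319, 323 and 342 to 97.7, 97.5 and 133 (-1.59 ± 0.15, adjusted p = 4.81e-06). The trehalose-6-phosphate synthase gene AOL_s00097g249 went from 770.3, 882 and 943 to 260.2, 263 and 319 (-1.62 ± 0.13, adjusted p = 1.06e-06), and acid trehalase AOL_s00043g154, which splits trehalose, from 18.2, 18.1 and 25.03 to 4.802, 3.26 and 3.66 (-2.13 ± 0.20, adjusted p = 4.41e-06). The synthetic and the degrading enzymes of both stores were thus lower together. The count was 9 of 11 with any 1 induced library left out, and 6 of 11 in deposited TPM.

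In glycolysis 10 of 13 genes fell and none rose, with a median of -0.77. Hexokinase AOL_s00112g89, which phosphorylates glucose on entry, went from 478, 499.8 and 407 to 115, 128 and 127 (-1.89 ± 0.12, adjusted p = 2.53e-07). Pyruvate kinase AOL_s00004g87, the last step, went from 601, 655 and 780.5 to 352, 339 and 269 (-1.08 ± 0.16, adjusted p = 0.000157). Enolase AOL_s00054g899 did not pass, at 1887, 2245 and 2344 against 1888, 1883 and 1951 (-0.17 ± 0.13, adjusted p = 0.307). In the tricarboxylic acid cycle 10 of 14 genes fell, with a median of -0.48, among them mitochondrial malate dehydrogenase AOL_s00210g140 at -0.95 ± 0.16, adjusted p = 0.000355. Isocitrate lyase AOL_s00075g130, the entry to the glyoxylate cycle, fell from 40.7, 38.2 and 32.4 to 11.1, 12.01 and 10.5 (-1.64 ± 0.22, adjusted p = 8.04e-05). Pyruvate carboxylase AOL_s00054g909, which refills the cycle from pyruvate, was an exception and rose from 449, 463 and 585 to 1053, 1096 and 842 (1.00 ± 0.27, adjusted p = 0.00861). In deposited TPM, glycolysis had 3 lower genes and 1 higher, and the tricarboxylic acid cycle 2 lower and 3 higher.

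Sugar uptake genes went with these. Of 18 sugar transporters, 11 fell and none rose, and 8 were still lower in deposited TPM. The high-affinity glucose transporter gene AOL_s00043g252 was at 116, 140.3 and 135 in the wild type and 15.3, 15.9 and 19.03 in the labelled deletion libraries (-2.89 ± 0.20, adjusted p = 3.28e-07). Alcohol dehydrogenase AOL_s00081g10 went from 1743, 1715 and 1955 to 232, 229 and 185 (-3.07 ± 0.18, adjusted p = 1.33e-07). It belongs to a set of 20 genes with a GroES-like alcohol dehydrogenase domain, a list made after values had been seen, of which 18 fell and none rose.

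Nitrogen genes changed in both directions. Of 12 genes for the use of nitrate, urea and purines, 8 fell and 2 rose, and in deposited TPM 5 fell and 3 rose. The count of higher genes was 1 without wild type library 1 or 2 or labelled deletion library 2. Nitrite reductase AOL_s00210g162 was at 412, 318 and 349 in the wild type and 96.8, 99.1 and 65.95 in the labelled deletion libraries (-2.04 ± 0.17, adjusted p = 1.69e-06). Its neighbour AOL_s00210g163, nitrate reductase, went from 404, 355 and 358 to 152, 157 and 130.4 (-1.34 ± 0.14, adjusted p = 7.14e-06). Nitrate transporter AOL_s00004g610 went from 651, 701 and 746 to 168, 203 and 131 (-2.08 ± 0.18, adjusted p = 1.79e-06). Allantoinase AOL_s00007g202, a step in purine breakdown, went from 191, 174 and 159.6 to 46.8, 53.5 and 27.1 (-2.07 ± 0.27, adjusted p = 6.41e-05). In contrast, the type-1 glutamine synthetase gene AOL_s00083g274 rose from 25.6, 30.1 and 29.6 to 55.3, 55.1 and 50.3 (0.89 ± 0.11, adjusted p = 3.52e-05), the ammonium transporter MEP2 gene AOL_s00043g163 from 327, 288 and 357 to 1319.5, 1325 and 834 (1.81 ± 0.22, adjusted p = 2.96e-05), and the general amino-acid permease gene AOL_s00170g65 from 90.5, 102 and 141 to 322, 343 and 424 (1.71 ± 0.16, adjusted p = 3.54e-06). The transporter list as a whole had 12 higher and 11 lower of 33, and in deposited TPM 15 and 6.

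Enzymes that make arginine, lysine and serine were lower, at 12 of 15 genes with none higher and a median of -0.81. Acetylornithine aminotransferase AOL_s00081g335, of arginine synthesis, went from 141, 181 and 185 to 51.1, 57.9 and 61.3 (-1.55 ± 0.18, adjusted p = 2.22e-05). Saccharopine dehydrogenase AOL_s00080g2, the last step to lysine, went from 704, 970.2 and 800.2 to 269, 284 and 288 (-1.54 ± 0.16, adjusted p = 9.45e-06). Both were picked from genes with no overlap between the strains, and 8 of the 15 genes were lower in deposited TPM.

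Genes of oxidative stress defence were mostly lower, with 41 of 66 lower, 11 higher and a median of -0.56. A glutathione-dependent formaldehyde-activating enzyme gene, AOL_s00097g98, went from 35.99, 30.2 and 31.5 to 3.16, 2.12 and 4.48 (-3.01 ± 0.21, adjusted p = 4.3e-07). A second gene with the same annotation, AOL_s00188g318, moved the other way, from 234, 317 and 279 to 2435, 2800.5 and 2771 (3.27 ± 0.22, adjusted p = 2.88e-07). Peroxisomal catalase AOL_s00006g411, which breaks down hydrogen peroxide, went from 34.2, 24.3 and 33.3 to 3.22, 3.58 and 9.18 (-2.43 ± 0.42, adjusted p = 0.000529). A lactoylglutathione lyase gene, AOL_s00043g110, of methylglyoxal detoxification, rose from 10.5, 3.51 and 4.15 to 33.8, 27.98 and 43.9 (2.47 ± 0.35, adjusted p = 0.000102). In deposited TPM the list had 20 lower and 15 higher genes.

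**Figure D4:**
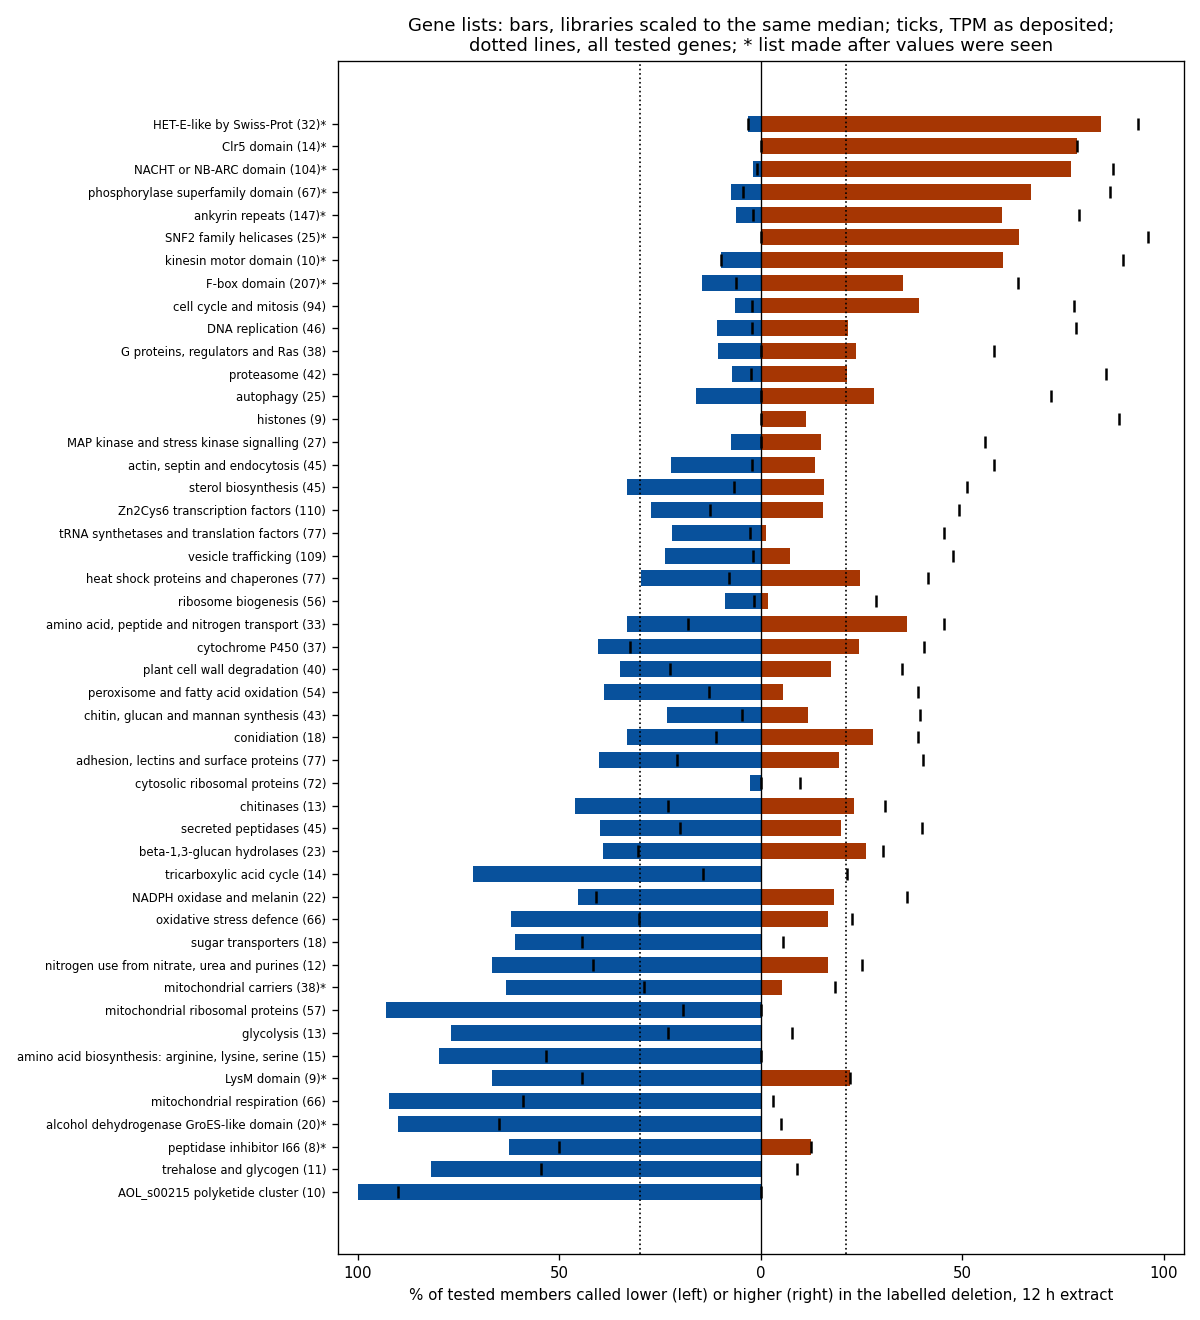
Share of tested members of each gene list with at least 8 members that was called lower (left, blue) or higher (right, orange) after induction, on a scale of % of the members given in brackets. Black ticks give the same in deposited TPM, dotted lines the shares over all tested genes (29.9% lower, 21.2% higher), and an asterisk a list made after values had been seen. Mitochondrial and carbon storage lists reach far beyond the line on the left, and lists of NACHT, ankyrin and related domains beyond that on the right.

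Of 45 secreted peptidases, 18 fell and 9 rose, against 29.9% and 21.2% of all tested genes. The cuticle-degrading serine protease gene AOL_s00076g4, of a class known to digest nematode cuticle, was at 66.5, 87.1 and 104 in the induced wild type and 9.17, 5.96 and 3.84 in the labelled deletion libraries (-3.61 ± 0.26, adjusted p = 4.35e-07). The aspartic protease gene AOL_s00173g133 went from 76.01, 115 and 87.8 to 16.995, 20.998 and 19.2 (-2.21 ± 0.19, adjusted p = 1.74e-06). On the other side, the subtilisin genes AOL_s00188g339 and AOL_s00210g212 rose from 2.48, 1.14 and 0.927 to 41.04, 34.5 and 28.1 (3.85 ± 0.23, adjusted p = 1.48e-07) and from 16.5, 10.8 and 13.6 to 52.9, 46.6 and 31.4 (1.59 ± 0.23, adjusted p = 0.000108). In deposited TPM the list had 9 lower and 18 higher.

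Of 77 adhesins, lectins and other surface proteins, 31 fell (40.3%) and 15 rose (19.5%). The hydrophobin-like rodlet gene AOL_s00006g570, whose product coats spores and aerial hyphae with a water-repellent layer, was at 7899, 11670.5 and 8588 and fell to 995, 951 and 948 (-3.26 ± 0.21, adjusted p = 2.16e-07). AOL_s00083g117, with a GLEYA domain as found in fungal adhesins, went from 3109, 4947 and 6368 to 696, 772 and 319 (-3.05 ± 0.39, adjusted p = 5.03e-05). The fucose-binding lectin genes split. AOL_s00173g391 fell from 49.6, 63.3 and 40.6 to 8.82, 7.45 and 8.84 (-2.46 ± 0.15, adjusted p = 1.89e-07), and AOL_s00078g564 rose from 14.2, 13.5 and 16.3 to 50.4, 50.9 and 49.3 (1.71 ± 0.11, adjusted p = 2.53e-07). With deposited TPM 16 of these genes were lower and 31 higher.

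Among enzymes that digest wall polymers, 6 of 13 chitinases fell (46.2%) and 3 rose (23.1%). Of 23 beta-1,3-glucan hydrolases 9 fell (39.1%) and 6 rose (26.1%), against 29.9% and 21.2% of all tested genes. The higher shares are near that of all tested genes. Only 3 glucan hydrolases were higher when wild type library 1 or 2 or labelled deletion library 3 was left out. In deposited TPM 3 chitinases were lower and 4 higher, and 7 glucan hydrolases each way. Endochitinase AOL_s00140g14 went from 181, 182 and 192 to 89.2, 93.5 and 102 (-0.96 ± 0.09, adjusted p = 4.66e-06), and the class III chitinase AOL_s00004g379 from 15.8, 17.9 and 13.2 to 39.96, 42.9 and 57.01 (1.51 ± 0.16, adjusted p = 9.62e-06). The glycosidase gene AOL_s00080g193 (crf2), which remodels wall glucan and chitin, went from 1452, 1414 and 1527 to 624, 647 and 674 (-1.18 ± 0.12, adjusted p = 6.13e-06).

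Conidia, which hyphae on agar may bear, were covered by the conidiation list. In it 6 of 18 genes fell and 5 rose, near the 29.9% and 21.2% of all tested genes, and in deposited TPM 2 fell and 7 rose. The higher count was 2 without wild type library 2 or labelled deletion library 1 and 3 without labelled deletion library 2. AOL_s00097g514, annotated as the master regulator of conidiophore development (brlA in Aspergillus), was at 101, 138 and 95.4 in the induced wild type and 33.9, 35.4 and 24.6 in the labelled deletion libraries (-1.79 ± 0.22, adjusted p = 3.92e-05). At 0 h the same gene had been higher in the labelled deletion libraries, at 34.8 ± 3.101 against 16.4 ± 5.01 (SD; 1.08 ± 0.22, adjusted p = 0.00207). The regulator gene wetA, AOL_s00173g221, which acts after brlA in Aspergillus, went from 12.3, 13.9 and 18.2 to 9.99, 9.56 and 5.99 (-0.74 ± 0.19, adjusted p = 0.00713). The stuA gene AOL_s00083g25, a regulator of cell pattern, rose from 25.2, 21.8 and 21.4 to 44.5, 45.7 and 30.05 (0.76 ± 0.19, adjusted p = 0.00551).

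Of 25 autophagy genes, which serve the self-digestion of cell contents in the vacuole, 7 rose (28%) and 4 fell (16%). Over all tested genes 21.2% were higher and 29.9% lower. The starter kinase gene atg1, AOL_s00076g234, rose from 6.94, 7.56 and 8.65 to 19.1, 17.9 and 13.7 (1.03 ± 0.20, adjusted p = 0.00129), and its partner atg13, AOL_s00215g74, from 22.8, 19.002 and 27.01 to 49.3, 46.5 and 32.9 (0.87 ± 0.18, adjusted p = 0.00168). The peroxisome-linked atg37 gene AOL_s00215g98 fell from 133, 131 and 144 to 89.4, 90.1 and 75.6 (-0.67 ± 0.10, adjusted p = 0.000131). The higher count was 4 without wild type library 2 or labelled deletion library 2 and 3 without labelled deletion library 1. In deposited TPM it was 18 with none lower, where 45.5% of all tested genes were higher and 13.7% lower. The count of higher autophagy genes thus turns on the libraries and on the scaling.

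More genes for cell division were higher than lower. Of 94 genes of the cell cycle and mitosis 37 rose and 6 fell, against 21.2% and 29.9% of all tested genes, with a median of 0.27. A gene annotated as a homologue of the cell division control kinase 2, AOL_s00078g495, went from 3.81, 3.77 and 3.23 to 72.6, 81.2 and 84.5 (4.13 ± 0.29, adjusted p = 3.93e-07). The kinetochore gene nuf2, AOL_s00006g373, which ties chromosomes to the spindle, went from 52.4, 51.6 and 45.9 to 96.8, 95.2 and 93.1 (0.92 ± 0.11, adjusted p = 2.56e-05). The count of higher genes was 24, 21, 19 and 21 without wild type library 1 or 2 or labelled deletion library 1 or 2. Their median coding length of 1926 bases is above that of all tested genes. With the length trend removed 43 were higher and 7 lower, against 25.8% and 25.6% of all tested genes. In deposited TPM 73 were higher and 2 lower, against 45.5% and 13.7%.

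An increase across most members was seen in large families of proteins with NACHT or NB-ARC domains, nucleotide-binding modules found in fungal incompatibility proteins and in immune receptors of plants and animals. These lists were made after values had been seen. Of 104 tested genes with such a domain, 80 rose and 2 fell, against 21.2% and 29.9% of all tested genes, with a median of 1.19. Of 147 genes with ankyrin repeats, a scaffold for binding other proteins, 88 rose and 9 fell, and 46 of them are also in the first list. Without those 46, 54 of 101 rose and 9 fell. Genes whose best match is the vegetative incompatibility protein HET-E, which acts in the recognition of non-self hyphae in Podospora, rose in 27 of 32 cases and fell in 1.

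Members of these families were low in the wild type. Over the 104 NACHT or NB-ARC genes, the median level was 3.33 in the induced wild type and 10.1 in the labelled deletion libraries, and the highest 62.6 and 96.0. AOL_s00078g516, of the STAND class of such proteins, went from 3.48, 2.86 and 2.601 to 57.1, 56.4 and 44.2 (3.75 ± 0.16, adjusted p = 1.04e-08). A HET-E-like gene, AOL_s00076g375, went from 1.77, 1.25 and 2.11 to 29.6, 22.7 and 22.7 (3.27 ± 0.16, adjusted p = 2.4e-08), and a NACHT gene, AOL_s00080g349, from 4.66, 2.94 and 4.13 to 33.8, 28.2 and 29.1 (2.69 ± 0.16, adjusted p = 1e-07). AOL_s00110g331, also with a NACHT domain, went the other way, from 37.4, 42.9 and 58.1 to 7.43, 7.89 and 4.16 (-2.67 ± 0.24, adjusted p = 2.75e-06). Families of similar sequence can share reads, so the value of a single member is uncertain. Deposited TPM gave 91 higher and 1 lower of the 104, where 45.5% of all tested genes were higher and 13.7% lower.

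These genes are long, with a median coding length of 3909 bases, and the length trend of labelled deletion libraries 1 and 2 runs in the same direction. Among genes of 3001 to 5000 bases, 59 of 70 NACHT or NB-ARC genes were higher, with a median of 1.47. Of the other 663 genes of that length 201 were higher (30.3%), with a median of 0.20. With the length trend removed, 72 of the 104 genes were higher and 3 lower, and with any 1 induced library left out 73 to 79 were higher.

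The difference between the effect after induction and the effect at 0 h was tested in the same fit. It was called for 1453 genes (15.1%), with 514 in which the induced effect was the more positive and 939 in which it was the more negative. At least 2-fold differences made up 2.36% and 6.23% of all tested genes. The total was 882 without induced wild type library 2, 836 without induced deletion library 1 and 851 without library 2. In deposited TPM the split turned, to 1362 and 490. Of the 915 genes at least 2-fold higher after induction, 804 (87.9%) were called higher at 0 h too, 5 were lower and 106 were not called. Of the 1206 at least 2-fold lower, 758 (62.9%) were called lower at 0 h, 52 were higher and 396 were not called. Across the 9617 genes, which are not independent replicates, both effects correlated at 0.758. They share no library.

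**Figure D5:**
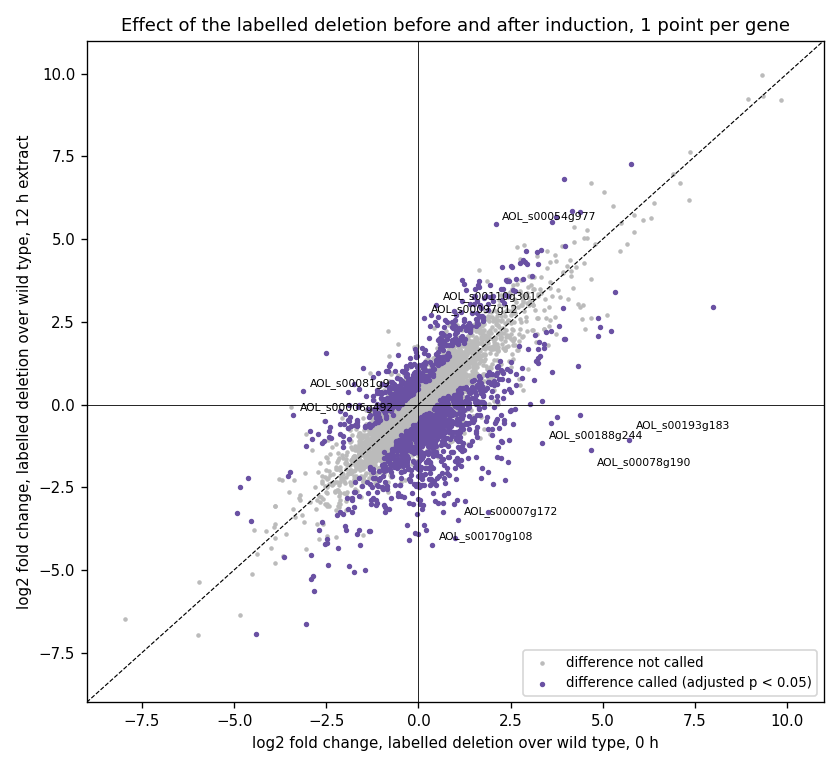
Fold change of each tested gene (log2) at 0 h (horizontal) against that after 12 h of extract (vertical), labelled deletion over wild type, with genes whose difference of effects was called in purple and the line of equal effects dashed. Most genes lie along the line, the AOL_s00088 genes at its upper end, and the genes with the largest differences, given by locus tag, lie to the lower right and the upper left of it.

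Of the 5 genes with the largest negative differences, 4 were called higher in the labelled deletion libraries at 0 h and lower after induction. AOL_s00193g183, another I66 inhibitor gene, was at 1.41, 2.45 and 0.802 in the untreated wild type libraries and 109.8, 113 and 175 in the untreated deletion libraries. After induction it was at 163, 210.1 and 157 in the wild type and 74.3, 92.2 and 83.2 in the labelled deletion libraries. The groups did not overlap at either time, and the difference of effects was -6.80 ± 0.34 (adjusted p = 1.83e-06). AOL_s00078g190, with a histone chaperone domain, had effects of 4.67 ± 0.45 at 0 h and -1.39 ± 0.45 after induction (difference -6.06 ± 0.64, adjusted p = 0.000174). Its induced decrease was not called without wild type library 2 (adjusted p = 0.0974), labelled deletion library 1 (0.0854) or library 2 (0.086), nor in deposited TPM (-0.88, adjusted p = 0.0739). For AOL_s00188g244, with a stress-related repeat motif, the effects were 3.36 ± 0.40 and -1.16 ± 0.40 (difference -4.52 ± 0.56, adjusted p = 0.000477). Its induced decrease was called with all libraries, at adjusted p = 0.0285, and not without wild type library 1 (0.0854) or 2 (0.124) or labelled deletion library 1 (0.105) or 2 (0.0687). Nor was it called in deposited TPM (-0.65, adjusted p = 0.131) or with the length trend removed (-0.78, adjusted p = 0.0628), and the induced groups overlapped.

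The other genes of the 5 encode surface proteins and were at their highest in the induced wild type. AOL_s00170g108, a hydrophobic surface binding protein, was at 18.6 ± 17.8 (SD) in the wild type at 0 h and at 353, 558 and 558 after induction. In the labelled deletion libraries it was at 21.7 ± 17.9 at 0 h and at 25.7, 25.1 and 22.9 after induction (difference of effects -4.61 ± 0.86, adjusted p = 0.0055). The hydrophobin gene AOL_s00007g172 was at 0, 0 and 0.930 and then 36.4, 50.2 and 27.9 in the wild type, and at 0.902, 1.298 and 3.03 and then 1.98, 2.42 and 2.94 in the labelled deletion libraries (-4.54 ± 0.46, adjusted p = 0.000145). Its effect at 0 h was 1.06 ± 0.33 (adjusted p = 0.0202), at low levels where the untreated groups overlapped (0.902 against 0.930).

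Among the largest positive differences, AOL_s00081g9, a phospholipase A2 of prokaryotic type, was high in the untreated wild type alone, at 124, 216 and 151, and at 12.7, 17.1 and 24.3 in the untreated deletion libraries. After induction the wild type held 11.3, 13.6 and 14.3 and the labelled deletion libraries 19.2, 17.3 and 16.03 (difference 3.52 ± 0.33, adjusted p = 7.14e-05). The killer toxin gene AOL_s00006g492 was at 17.7 ± 3.07 (SD) in the untreated wild type and 0.787 ± 0.298 in the untreated deletion libraries, and after induction at 1.21 ± 0.115 and 0.782 ± 0.285 (3.07 ± 0.26, adjusted p = 6.03e-05). For the methionine permease gene AOL_s00054g977 the strains were at 12.5 ± 2.11 and 56.3 ± 4.52 (SD) at 0 h, so its increase was larger after induction (3.36 ± 0.21, adjusted p = 8.24e-06). AOL_s00110g301, with a CHAT domain, which is related to caspases, and AOL_s00097g12, a glucan endo-1,3-beta-glucosidase, did not differ in a called way at 0 h (0.48 ± 0.36 and 0.15 ± 0.30) and were higher after induction (3.02 ± 0.36 and 2.63 ± 0.30). Their differences were 2.54 ± 0.51 and 2.47 ± 0.42 (adjusted p = 0.0077 and 0.00336).

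By list, respiration had 6 of 66 genes with a more negative effect after induction, and the mitochondrial ribosomal list had none and 3 of 57 with a less negative one. Oxidative stress defence had 16 of 66 more negative, sugar transporters 6 of 18, and the GroES-like alcohol dehydrogenases 7 of 20. Secreted peptidases had 11 more negative and 4 more positive of 45, and adhesins, lectins and surface proteins 17 and 6 of 77, against 9.76% and 5.34% of all tested genes. In the conidiation list 6 of 18 were more negative. Of the 104 NACHT or NB-ARC genes 30 had a more positive effect after induction. Length classes also moved between the times. The median fold change of genes of 3001 to 5000 bases was -0.08 at 0 h and 0.25 after induction. That of genes up to 500 bases was 0.04 and -0.27. None of these list counts of the difference was taken with the length trend removed.

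At adjusted p under 0.05 and at least 2-fold, the authors' deposited table lists 1156 higher and 1110 lower of the tested genes. It shares 1932 genes with the 2121 called here at the same thresholds, which is 91.1% of the latter and 85.3% of the 2266 in the authors' deposited table, and none of the shared genes has the opposite sign. Both rest on the same libraries. For adenylate cyclase, AOL_s00080g284, the authors' deposited table gives a log2 fold change of -0.60.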

How the data were processed

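The deposited TPM values, 12 columns for the Acy experiment, were made by the authors from reads with HISAT2 and StringTie, per the submitters' processing notes. Their versions are not given, and the genome build is not given in the sources used here. TPM hold no read counts, so the depth behind a value is unknown. The annotation in the files named 7347 of 11479 genes, and 99.98% of the gene lengths were multiples of 3, so they are coding lengths. All names matched a RefSeq locus tag, which was used for neighbours only. The log2 fold changes and adjusted p-values of the authors' deposited table were used for comparison only.

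Genes with at least 1 TPM in at least 3 of 12 libraries were kept. Libraries were scaled to the same median, set to log2(TPM + 1), and fitted with limma 3.58.1 (limma-trend, R 4.3.3) over 4 groups, which share the spread (8 residual degrees of freedom). In simulated data over 9617 genes the fit for the induced comparison recovered 88% of genes changed by 1 and 98% of those changed by 2 on the log2 scale, with 8 false calls. The simulated noise was independent between genes and libraries. Only 100 genes were changed per size, equally in both directions, all above about 10 TPM. It held no length trend and no shift of whole libraries, so these values do not give the error rate of the real comparison or for low genes. Lists matched the Swiss-Prot name or Pfam domain. Genes and lists were chosen with earlier results of these data known. Named genes were the cAMP-PKA list, the 12 largest named changes per direction with no overlap and a mean of at least 10 TPM in 1 group, up to 2 per direction from each of the 8 lists with most calls, the 5 largest differences per direction, and 5 unnamed genes per direction. Other genes given were picked after their values were seen. Alternatives were a pseudocount of 0.1, no filter, a minimum of 5 TPM, deposited TPM, median of ratios, a replicate block, robust variances, only the 2 groups, and each library left out. A fit with the trend over coding length removed was added after the data were seen. In the PkaC1 experiment only the AOL_s00088 genes were read. Its table was normalized separately, so levels are not compared across tables.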

Additional observations from a re-analysis of the deposited data

Results flagged for a closer look

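The effect of the labelled deletion differed between 0 h and 12 h of extract for 1453 genes. Among the largest named changes, the induced effect was the more negative for AOL_s00188g351 (difference of effects -2.53 ± 0.45), AOL_s00080g288 (-2.80 ± 0.42), AOL_s00215g805 (-2.35 ± 0.51), AOL_s00076g557 (-3.55 ± 0.43), AOL_s00083g381 (-2.40 ± 0.38), AOL_s00076g531 (-0.95 ± 0.18) and AOL_s00080g425 (-1.65 ± 0.37). It was the more positive for AOL_s00078g25 (1.89 ± 0.25), AOL_s00054g977 (3.36 ± 0.21), AOL_s00007g121 (1.34 ± 0.29), AOL_s00173g6 (1.39 ± 0.23), AOL_s00079g357 (1.53 ± 0.46), AOL_s00078g22 (1.39 ± 0.34), AOL_s00043g179 (1.29 ± 0.26) and AOL_s00173g198 (1.87 ± 0.47). The genes chosen for their difference were AOL_s00193g183 (-6.80 ± 0.34), AOL_s00078g190 (-6.06 ± 0.64), AOL_s00170g108 (-4.61 ± 0.86), AOL_s00007g172 (-4.54 ± 0.46), AOL_s00188g244 (-4.52 ± 0.56), AOL_s00081g9 (3.52 ± 0.33), AOL_s00006g492 (3.07 ± 0.26), AOL_s00110g301 (2.54 ± 0.51) and AOL_s00097g12 (2.47 ± 0.42). All values are log2 differences ± SE from limma with adjusted p under 0.05 and 3 libraries in each of the 4 groups.

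The AOL_s00088 stretch was also raised in libraries that the comparison does not use. In the PkaC1 experiment, 14 of the 16 genes were higher in every untreated PkaC1 deletion library than in every untreated wild type library of that experiment. Their deposited TPM summed to 693 to 853 in the untreated PkaC1 deletion libraries and to 15.3 to 17.4 in the untreated wild type. After induction the sums were 19.5 to 29.7 and 17.8 to 23.8, and 2 of the 16 genes were above every wild type library. The zinc finger gene AOL_s00088g42 was at 112, 95.0 and 96.7 deposited TPM in the untreated PkaC1 deletion libraries, and at 0.05, 0.61 and 0.19 in the induced ones. The difference between the 2 experiments was not tested.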

How the results depend on the processing

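Of 1035 values recomputed for named genes, 1013 kept their direction and side of the threshold, 13 values of 5 genes no longer passed, and 6 newly passed. Most named genes were chosen for large changes in the same data, so this count does not measure how stable other genes are. In deposited TPM 3 cAMP-PKA values, none of them called with scaled libraries, changed sign, for AOL_s00043g480 (0.33), AOL_s00078g405 (0.16) and AOL_s00109g42 (0.36). The scaling moved the balance of calls. Deposited TPM gave 4378 higher and 1317 lower genes (1722 and 605 at 2-fold), and for the difference of effects 1362 and 490 (646 and 365 at 2-fold). All other settings kept these counts within 1.5 times, except libraries left out of the difference. Leaving out each library, the induced comparison had 4137 to 4882 calls (1708 to 2023 higher, 2409 to 2859 lower, and 905 to 936 and 1106 to 1306 at 2-fold). The difference had 836 to 1856 (239 to 698 higher and 592 to 1158 lower, and 162 to 298 and 464 to 719 at 2-fold). Its count of higher genes was 330 without untreated wild type library 3, 265 without induced wild type library 2, 244 without induced deletion library 1 and 239 without library 2.

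Replicate numbers did not pair the libraries of the strains: deviations from the group means of same-numbered induced deletion and wild type libraries correlated at -0.006, -0.149 and -0.352. Induced and untreated deletion libraries of the same number correlated at 0.207, 0.144 and 0.437, and those of the wild type at 0.251, -0.022 and -0.143. With the replicate block 4718 genes were called against 4913, no named gene lost its call, and the difference of effects had 1209 calls against 1453 (389 higher and 820 lower). A fit of only the 2 groups was not possible for the difference. Depth is unknown, so what it limits cannot be stated for single low genes.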

Other observations

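Genes of the NADPH oxidase and melanin list are described in no comparison above. Of the 22 tested genes on this list, which was matched by annotation words, 10 fell (45.5%) and 4 rose (18.2%) in the labelled deletion libraries. Over all tested genes 29.9% were lower and 21.2% higher. In deposited TPM the list had 9 lower and 8 higher. The tyrosinase gene AOL_s00215g501, of a class of copper enzymes that start melanin synthesis, was at 11.2, 25.7 and 27.1 in the wild type and 0.0990, 0.0758 and 0.128 in the labelled deletion libraries (-4.25 ± 0.35, limma adjusted p = 1.37e-06). Within the same list, the iron transport oxidase gene AOL_s00097g347 (FET3) went from 115, 125 and 127 to 20.8, 23.4 and 13.9 (-2.63 ± 0.20, adjusted p = 7.17e-07). A second tyrosinase gene, AOL_s00076g552, rose from 4.33, 3.49 and 3.02 to 7.81, 7.31 and 10.3 (1.03 ± 0.19, adjusted p = 0.000671).

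Other domain lists were made after values had been seen. Shares over all tested genes were 21.2% higher and 29.9% lower, and in deposited TPM 45.5% and 13.7%. Of 14 genes with a Clr5 domain 11 rose and none fell, and AOL_s00083g374 went from 3.55, 1.998 and 4.72 to 52.4, 42.4 and 48.6. Of 67 genes with a phosphorylase superfamily domain 45 rose and 5 fell, and 35 of them also carry a NACHT or NB-ARC domain. Of 207 F-box genes, which recruit proteins for degradation, 73 rose and 30 fell. Of 38 mitochondrial carriers, which move metabolites across the inner membrane, 24 fell and 2 rose. In deposited TPM the F-box list had 132 higher and 13 lower, and the carriers 7 higher and 11 lower. Among regulators of G proteins, AOL_s00043g377 rose from 16.1, 18.2 and 26.7 to 82.5, 86.9 and 88.7 (2.06 ± 0.16, adjusted p = 7.59e-07), in a list of 38 with 9 higher and 4 lower, against 21.2% and 29.9% of all tested genes. The lower count was 1 without wild type library 1 and 2 without labelled deletion library 1 or 2, the higher count was 6 without labelled deletion library 2, and deposited TPM gave 22 higher and none lower.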
